A study of Mus musculus with 8 samples.

Results

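Microglia from uninjured A20 cKO mice were compared with microglia from control mice 3 days after nerve injury. The cells were all barcodes of the A20 cKO naive and control day 3 libraries with at least 1000 UMIs, at least 500 detected genes and at most 10% mitochondrial UMIs, where a UMI (unique molecular identifier) marks a single captured RNA molecule. This kept 2922 of 2980 barcodes of A20 cKO naive and 2117 of 2171 barcodes of control day 3, together 5039 of the 14626 kept cells in the 8 libraries of the study. Control mice were Cx3cr1-yfp-creER/+ and A20 cKO mice were Cx3cr1-yfp-creER/+; Tnfaip3 fl/fl, all on C57BL/6 and young adult. Both genotypes thus carried YFP and a tamoxifen-inducible Cre at a Cx3cr1 allele, and tamoxifen was given ahead of the experiments. The injury was bilateral sciatic nerve transection, and the A20 cKO naive mice had none. Lumbar cords of several animals were pooled into each library and YFP (+) cells were sorted, a gate that marks the Cx3cr1 reporter and does not select cells with recombined Tnfaip3. Genotype and injury both differed between the 2 libraries, and each group was its own library. The contributions of genotype, injury and library thus cannot be told apart, and with 1 library a side no test between conditions was possible. All intervals below are 95% and cover counting error only.

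Microglia, the macrophages that live in the brain and spinal cord, divide in the lumbar cord after injury of the sciatic nerve. A20, the protein encoded by Tnfaip3, is a ubiquitin-editing enzyme that restrains NF-kB signalling downstream of TNF, interleukin-1 and Toll-like receptors, and it also limits cell death. NF-kB drives cytokine, chemokine and MHC class I genes, and Tnfaip3 is itself an NF-kB target. Type I interferon drives a partly overlapping set that includes the MHC class I genes. Cells that divide carry transcripts of the replication genes in S phase and of the mitotic genes in G2 and M.

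The kept cells gave 8919100 UMIs for A20 cKO naive and 7286748 UMIs for control day 3, with medians of 2824 and 3191 UMIs per cell. The microglia markers Tmem119, P2ry12 and Cx3cr1 were detected in 99.18%, 97.3% and 94.66% of kept cells of A20 cKO naive and in 98.63%, 97.97% and 94.95% of those of control day 3, and 3 and 11 cells had none of the 3. Of the border macrophage markers, Cd163 was found in 0 cells of both libraries, Mrc1 in 4 and 5 kept cells and Pf4 in 5 and 11. Of the monocyte markers, Ccr2 was found in 0.582% and 0.756% of kept cells and Plac8 in 6.13% and 5.01%. Of the lymphocyte markers, Cd3e was found in 0 cells and Cd79b, a part of the B cell receptor, in 8.90% and 11.1%. The summed monocyte markers were at 41.7 and 36.5 CPM, the border macrophage markers at 6.62 and 4.12 CPM and the lymphocyte markers at 32.1 and 37.5 CPM. Larger sums were those of oligodendrocyte markers, 219 and 223 CPM, and astrocyte markers, 394 and 262 CPM. Mbp, an oligodendrocyte marker, was found in 18.5% and 21.3% of kept cells. Most of the astrocyte sum was Slc1a3, at 380 and 252 CPM and in 64.0% and 55.3% of kept cells. The summed level of 7 neutrophil markers was 45.6 CPM (UMIs scaled to a common library total) in A20 cKO naive and 38.4 CPM in control day 3, and the choroid plexus transcript Ttr had 1122 and 1597 UMIs, of which 85.3% and 79.2% lay under a single barcode. Ttr had 0 UMIs in control naive, day 1 and day 2, and the neutrophil markers were at 0, 0.142 and 0 CPM there. The injured A20 cKO libraries had 998 to 1201 Ttr UMIs and 30.3 to 54.8 CPM of neutrophil markers. Mbp was at 14.7 to 24.7 CPM in those controls, 80.3 CPM in control day 3 and 79.9 to 134 CPM in the A20 cKO libraries. For these transcripts control day 3 was thus nearer the A20 cKO libraries than the other controls. Their part in the levels below was not tested. The 2 libraries shared 35 barcodes, which were 1.17% and 1.61% of their barcodes, and 16 of these were kept in both. Without the barcodes that another library also held, 88 genes were called higher and 142 lower between the libraries, against 92 and 142 with them.

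Tnfaip3 (chr10:19000910-19015657, minus strand, GRCm38) is the targeted gene. Its summed level was 47.4 CPM (43.0 to 52.2) in A20 cKO naive and 20.3 CPM (17.2 to 23.9) in control day 3, a log2 ratio of 1.22. It was 24.1, 25.3 and 6.83 CPM in the naive, day 1 and day 2 controls, and 42.3, 52.4 and 67.7 CPM in the day 1, day 2 and day 3 A20 cKO libraries. All 4 A20 cKO libraries were above all 4 control libraries. These libraries read the 3′ end of transcripts, which does not show whether the floxed part of the gene is present, so the level of Tnfaip3 does not check the deletion. Upstream of the RefSeq start, the promoter of Tnfaip3 (chr10:19015411-19015660, GRCm38.p6, minus strand) held 2 matches to the NF-kB consensus. They are shown in capitals in the 250 bases before that start. The gene span given above is from GENCODE, which places the start elsewhere, so most of these bases lie inside that span.

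Tnfaip3: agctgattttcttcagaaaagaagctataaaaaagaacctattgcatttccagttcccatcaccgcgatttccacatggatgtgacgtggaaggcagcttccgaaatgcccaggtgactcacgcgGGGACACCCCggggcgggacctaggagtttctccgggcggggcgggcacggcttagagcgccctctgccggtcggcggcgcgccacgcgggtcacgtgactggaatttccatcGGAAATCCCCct

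The match in the last bases lies 12 to 3 bases before the start and the other lies 125 to 116 bases before it. A match is a description of the letters and says nothing of binding in these cells.

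Most genes had similar levels in uninjured A20 cKO and injured control microglia. Of 9541 genes with at least 100 UMIs over both libraries, 88.3% lay within 0.5 of 0 on the log2 scale, and the median log2 ratio of A20 cKO naive over control day 3 was -0.01. At a log2 ratio of 1 or more, 92 genes were called higher in A20 cKO naive (0.964% of genes) and 142 were called lower (1.49%). A call here is a ratio past 2.0-fold between 2 libraries and no test. The interval lay wholly above 1 for 41 genes and wholly below -1 for 43. Of the 142 genes called lower, 41 were in the list of mitotic genes. The plot of ratio against level shows both sets of called genes.

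**Figure D1:**
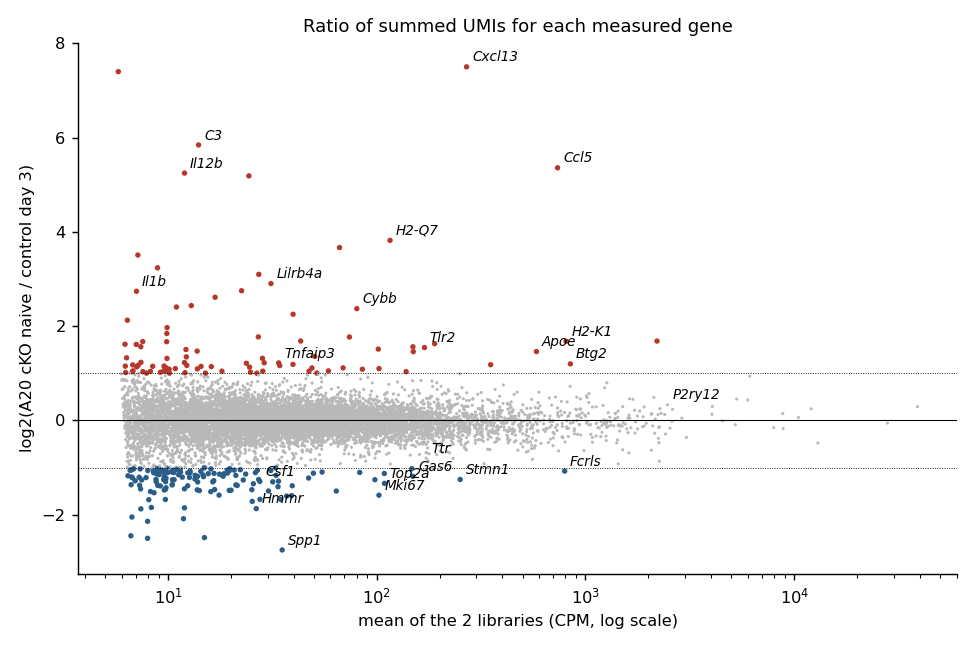
Each point is a gene, with its mean level in the 2 libraries (CPM, log scale) on the horizontal axis and the log2 ratio of A20 cKO naive over control day 3 on the vertical axis. Red points are the 92 genes called higher, blue points the 142 called lower and grey points the rest, and dotted lines mark log2 ratios of 1 and -1. Cxcl13 and Ccl5 stand far above the cloud at high level, and Mki67, Top2a and Stmn1 lie below it.

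Chemokines were the group with the highest ratios. Of 12 measured, 6 were called higher and 0 lower, with a median log2 ratio of 0.97 (background 0.964% of genes called higher). Cxcl13, which attracts B cells, was at 536 CPM in A20 cKO naive and 2.88 CPM in control day 3, 182-fold higher with a log2 interval of 6.92 to 8.23. Its level was 0 to 0.142 CPM in the other 3 control libraries and 316 to 872 CPM in the other 3 A20 cKO libraries. Control day 3 was thus the highest of the control libraries for Cxcl13 and still far below any A20 cKO library. Cxcl13 UMIs were found in 13.3% of A20 cKO naive cells and 0.373% of control day 3 cells, with each cell thinned to 2000 UMIs, and in 16.5% and 0.661% of cells before thinning. The 10% of A20 cKO naive cells with most Cxcl13 held 96.0% of its UMIs, so the transcript was concentrated in few cells. Ccl5, which attracts T cells and macrophages, was at 1435 CPM against 34.9 CPM, 41.1-fold higher, and was found in 48.4% of thinned A20 cKO naive cells against 2.13% of control day 3 cells (54.3% and 2.98% before thinning). Of the 14 kept barcodes without a UMI of Tmem119, P2ry12 or Cx3cr1, which had median depths of 1580 UMIs (3 barcodes of A20 cKO naive) and 1087 UMIs (11 of control day 3), Cxcl13 and Ccl5 were each held by 1 of the 3 and 0 of the 11. Il12b, Fcrls and Myc were found in 0 of these 14, with an upper bound of 23.2% over both libraries. Apoe was found in 13, H2-D1 in 8, Egr1 in 7 and Stmn1 in 4. Because 11 of the 14 were shallow barcodes of control day 3, the bound does not give the background of A20 cKO naive. Cells outside the strict cycling classes had medians of 2902 UMIs in A20 cKO naive and 3266 UMIs in control day 3. The level of Ccl5 was 15.4, 6.26 and 27.2 CPM in the naive, day 1 and day 2 controls. It was 2001 to 2756 CPM in the injured A20 cKO libraries. Cxcl16, a membrane-bound chemokine that binds CXCR6, was at 286 CPM against 92.5 CPM, and Cxcl9, an interferon-gamma-inducible CXCR3 ligand, was at 15.8 CPM against 3.98 CPM. Ccl3 and Ccl7, which attract monocytes, had log2 ratios of 1.10 and 1.32. Ccl12, a monocyte chemoattractant, went the other way with 1236 CPM in A20 cKO naive and 1991 CPM in control day 3, a log2 ratio of -0.69 that was not called.

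The promoter of Cxcl13 (chr5:95956689-95956938, plus strand) is shown for its place at the top of the ranking. In these 250 bases neither the NF-kB consensus nor the core of the interferon-stimulated response element (ISRE, a pair of GAAA stretches with 2 bases between them) was found on either strand, which says only that these letters are not in this window.

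Cxcl13: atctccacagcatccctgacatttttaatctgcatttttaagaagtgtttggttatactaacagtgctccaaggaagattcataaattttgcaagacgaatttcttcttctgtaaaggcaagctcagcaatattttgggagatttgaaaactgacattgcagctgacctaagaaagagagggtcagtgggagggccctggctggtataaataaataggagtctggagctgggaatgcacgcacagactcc

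The cytokine list split between directions. Of 15 measured cytokines, 3 were called higher and 1 lower (background 0.964% and 1.49% of genes), with a median log2 ratio of 0.34. Il12b, the p40 subunit of interleukin-12 and interleukin-23, was at 23.4 CPM (209 UMIs) against 0.549 CPM (4 UMIs), and was detected in 1.65% and 0.106% of thinned cells. Il1b, the inflammasome-processed cytokine, was at 12.3 CPM against 1.78 CPM, with 18.2 CPM in control day 1, and it was thus above its A20 cKO naive level in an injured control library. Il27 was at 9.08 CPM against 3.57 CPM. Csf1, the growth factor ligand of the receptor on which microglia depend, was lower, at 15.9 CPM against 39.1 CPM, a log2 ratio of -1.29. Control naive, day 1 and day 2 had 14.8, 12.9 and 11.6 CPM of Csf1, so A20 cKO naive was near these and control day 3 stood above them.

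**Figure D2:**
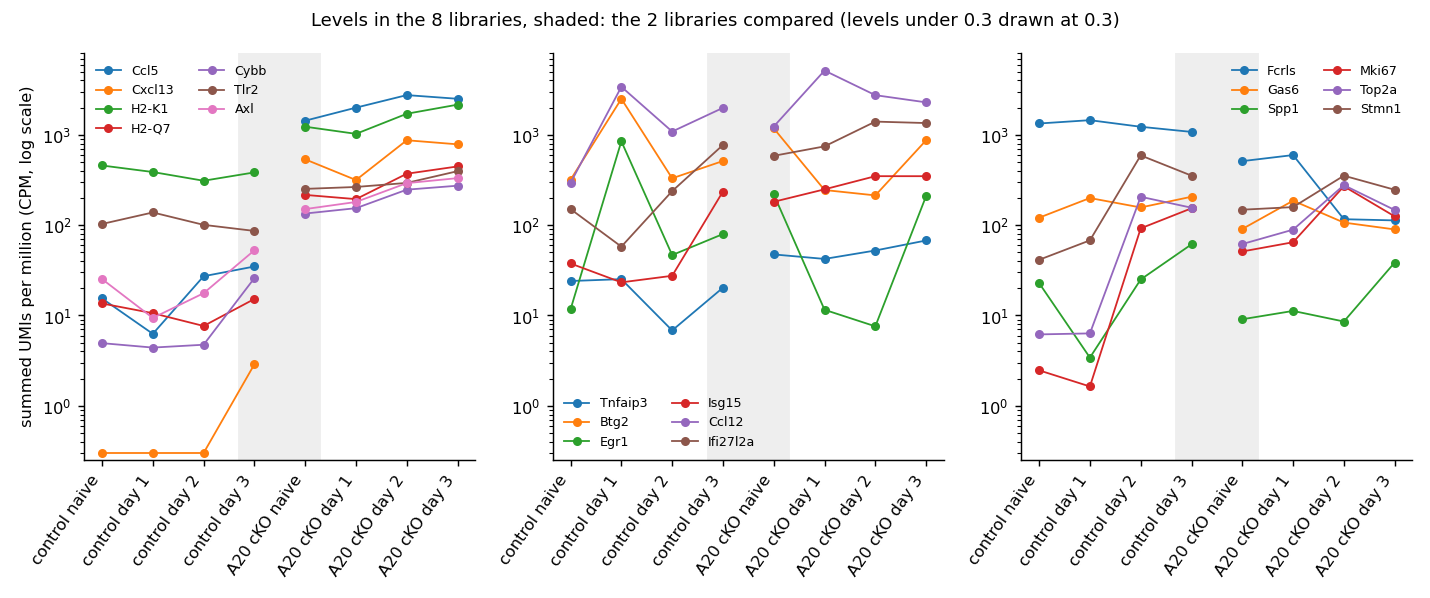
Summed level (CPM, log scale, levels under 0.3 drawn at 0.3) of selected genes in the 8 libraries, with lines joining libraries of the same genotype and the 2 compared libraries shaded. The left panel shows genes with higher levels in all A20 cKO libraries, the middle panel Tnfaip3, early response and interferon-related genes, and the right panel genes that were lower in A20 cKO naive than in control day 3.

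Heavy chain genes of MHC class I were called higher in A20 cKO naive for 5 members, with log2 ratios of 1.56 to 3.82, while the peptide transporter genes Tap1 and Tap2 were at -0.01 and 0.28. The summed level of the list was 15200 CPM in A20 cKO naive and 7540 CPM in control day 3. Of its 21 genes, 5 were called higher and 0 lower (background 0.964% and 1.49% of genes), with a median log2 ratio of 0.28. H2-K1 and H2-D1, the classical heavy chains, were at 1231 against 384 CPM and 3358 against 1045 CPM, log2 ratios of 1.68 (1.62 to 1.74) and 1.68 (1.65 to 1.72). The nonclassical heavy chains H2-Q7, H2-Q6 and H2-Q4 were at 216 against 15.2 CPM, 123 against 9.61 CPM and 223 against 75.3 CPM. These genes are similar in sequence and reads may be split among them, so their separate ratios are uncertain. B2m, the shared light chain, was at 8053 against 4202 CPM, a log2 ratio of 0.94. H2-K1 was between 310 and 458 CPM in the 4 control libraries and between 1026 and 2160 CPM in the 4 A20 cKO libraries, with no overlap. In the MHC class II list, 1 of 9 measured genes was called higher and 1 lower. The invariant chain Cd74 was at 186 against 90.6 CPM, while H2-Eb1, the beta chain of the class II molecule, was at 4.04 against 9.33 CPM.

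A promoter was given for 17 of the 21 measured genes of the MHC class I list. Of these, 8 (47.1%) held the NF-kB consensus and 5 (29.4%) the ISRE core within 250 bases before and 50 after the start, against 8.18% and 3.49% of all 27025 promoters in the table, both strands searched. For the genes called higher, the genes called lower and the mitotic genes, fewer than 80% had a promoter in the table, so the same count over those sets is void and is not given. The upstream 250 bases of H2-K1 (chr17:34000348-34000597, minus strand) and H2-D1 (chr17:35262844-35263093, plus strand) are shown because the same 11-base stretch, GGGGATTCCCC, which holds 2 overlapping matches to the NF-kB consensus, is found in both. The bases around this stretch are also alike in both, so the 17 promoters counted above are not independent of each other.

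H2-K1: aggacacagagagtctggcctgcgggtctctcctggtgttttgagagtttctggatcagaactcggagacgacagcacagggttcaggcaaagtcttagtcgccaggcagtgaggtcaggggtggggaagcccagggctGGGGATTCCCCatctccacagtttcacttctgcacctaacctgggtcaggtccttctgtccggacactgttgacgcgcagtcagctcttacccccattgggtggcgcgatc

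H2-D1: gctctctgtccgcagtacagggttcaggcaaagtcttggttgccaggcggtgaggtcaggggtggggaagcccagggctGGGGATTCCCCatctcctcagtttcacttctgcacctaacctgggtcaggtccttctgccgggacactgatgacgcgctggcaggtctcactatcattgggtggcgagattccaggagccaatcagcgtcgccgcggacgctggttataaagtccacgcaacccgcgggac

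Interferon-stimulated genes were at similar summed levels in the 2 libraries, 10440 CPM in A20 cKO naive and 11070 CPM in control day 3. Of 61 measured, 6 were called higher and 1 lower (background 0.964% and 1.49% of genes). A ratio below 0 was found for 42 of the 61, and the median log2 ratio of the 61 was -0.16. The control naive, day 1 and day 2 libraries had 3392 to 4427 CPM and the injured A20 cKO libraries 12160 to 18400 CPM. Those called higher were the 2′-5′-oligoadenylate synthetases Oas1g, Oas2 and Oas3, together with Ifi44, Pydc4 and Lgals3bp. Oas2 was at 41.9 against 12.2 CPM and had 0 to 0.695 CPM in control naive, day 1 and day 2. Oas1g was at 28.9 against 4.67 CPM. Gbp2, an interferon-induced GTPase and the member called lower, was at 31.3 against 68.1 CPM. Of the most abundant members, Ifitm3, which blocks viral entry, was at 781 against 561 CPM and Ifi27l2a was at 586 against 773 CPM.

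Receptors and secreted proteins that are reported to rise in disease-associated microglia were called in both directions. Of 24 measured genes in that list, 6 were called higher and 2 lower (background 0.964% and 1.49% of genes). Their median log2 ratio was 0.30. Cybb, the catalytic subunit of the phagocyte NADPH oxidase, was at 135 against 25.9 CPM, and at 4.41 to 4.94 CPM in the other control libraries. Axl, a receptor for apoptotic cells, was at 151 against 52.7 CPM. Lilrb4a, an inhibitory receptor, was at 54.9 against 7.27 CPM, and Itgax, which encodes CD11c, was at 21.9 against 3.98 CPM. Apoe, the lipid carrier, was at 854 against 310 CPM and Lgals3 was at 20.3 against 7.27 CPM. Apoe is named after its value was seen, as are Lgals3 and the called members Ccl3, Ccl7, Lgals3bp and Gbp2 above. In control naive, however, Apoe was at 1113 CPM, above its level in A20 cKO naive. Spp1, which encodes osteopontin, had the lowest log2 ratio of all measured genes, at 9.08 CPM in A20 cKO naive and 61.3 CPM in control day 3, a log2 ratio of -2.75 (-3.12 to -2.41). It was detected in 1.07% and 3.46% of thinned cells (1.61% and 5.29% before thinning). Of 30 measured Toll-like receptors, Fc receptors and complement genes, 2 were called higher and 0 lower. Tlr2, which senses bacterial lipoproteins, was at 252 against 86.3 CPM, with 86.3 to 138 CPM over the control libraries. C3, the central complement component, had 246 UMIs against 3 UMIs, a log2 ratio of 5.85 with an interval of 4.50 to 8.35.

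Of 15 measured NF-kB subunits and inhibitors, 2 were called higher and 0 lower (background 0.964% and 1.49% of genes). Their median log2 ratio was 0.40, with 13 ratios above 0. Nfkb2, a subunit of the noncanonical pathway, was at 18.8 against 8.78 CPM and the inhibitor Nfkbie at 24.4 against 11.8 CPM. Among the cells left after removing those with any marker of another cell type, the log2 ratio of Nfkbie was -0.15. Only 14.8% of A20 cKO naive and 16.5% of control day 3 cells were left in that setting. Nfkbia, the classical inhibitor and an early NF-kB target, was at 567 against 374 CPM, a log2 ratio of 0.60. Of 16 measured partners of A20, Tnfaip3 was the only gene called, and the median log2 ratio was 0.04. Of 26 measured cell death genes, 0 were called in either direction.

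Of 26 measured AP-1 and early response genes, 3 were called higher and 0 lower (background 0.964% and 1.49% of genes). Their median log2 ratio was 0.48, with 5 ratios below 0. Egr1, an immediate early transcription factor, was at 219 against 79.7 CPM, and Btg2, an antiproliferative early gene, was at 1180 against 514 CPM. Egr1 was at 11.7, 848 and 46.7 CPM in the naive, day 1 and day 2 controls, and at 11.6, 7.58 and 210 CPM after 1 to 3 days in the injured A20 cKO libraries. High and low libraries thus occurred within both genotypes. Jun was at 1527 against 944 CPM and between 177 and 5124 CPM over all 8 libraries. Median mitochondrial UMIs were 1.16% in A20 cKO naive and 1.51% in control day 3, and their part in these levels was not tested.

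Among homeostatic microglia genes, Fcrls and Gas6 were called lower in A20 cKO naive and Egr1 higher. Of 40 measured, 1 was called higher and 2 lower (background 0.964% and 1.49% of genes), with a median log2 ratio of -0.03. The summed level was 94990 CPM against 97580 CPM. Fcrls, an Fc receptor-like gene that marks microglia, was at 512 CPM against 1078 CPM, a log2 ratio of -1.07 (-1.13 to -1.02), and was detected in 50.3% against 78.6% of thinned cells (60.0% and 86.1% before thinning). It was between 1078 and 1454 CPM in the 4 control libraries, at 597 CPM in A20 cKO day 1 and at 116 and 113 CPM in A20 cKO day 2 and day 3. Gas6, a ligand of the Axl family, was at 90.7 against 206 CPM and Olfml3, a secreted microglial protein, at 992 against 1877 CPM. P2ry12 and Gpr34, purine and lysophospholipid receptors, were at 2755 against 2191 CPM and 1094 against 797 CPM, so they were somewhat higher in A20 cKO naive. Cst3, the most abundant homeostatic transcript shown here, was at 27460 against 28550 CPM.

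Other genes at the low end were Cd244, Stmn1, Naaa, Prdx4, Gadd45g, Emp3 and Gbp7. Cd244, a receptor of the SLAM family, was at 33.4 against 94.6 CPM, and it was at 3.70 CPM in control naive and 51.8 to 112 CPM in the other 5 libraries. Stmn1, which destabilizes microtubules, was at 148 against 354 CPM. Naaa, a lysosomal amidase, was at 57.7 against 138 CPM and Prdx4, a peroxiredoxin of the endoplasmic reticulum, at 68.3 against 149 CPM. Gbp7, an interferon-inducible GTPase, was at 80.2 against 152 CPM and between 54.3 and 85.9 CPM in the other libraries, so control day 3 was the library that stood apart for this gene.

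Genes of mitosis were lower in A20 cKO naive than in control day 3. Of 59 measured mitotic genes, 41 were called lower and 0 higher (background 1.49% of genes called lower), with a median log2 ratio of -1.19, and 0 had a ratio above 0. Mki67, a nuclear protein of dividing cells, was at 51.1 CPM in A20 cKO naive and 154 CPM in control day 3, a log2 ratio of -1.59 (-1.75 to -1.43). It was at 2.47, 1.64 and 92.2 CPM in the naive, day 1 and day 2 controls. The injured A20 cKO libraries had 64.7, 269 and 125 CPM from day 1 to day 3. A20 cKO naive was therefore above the uninjured and day 1 controls for Mki67 and below control day 2 and day 3. Top2a, which untangles DNA, was at 61.8 against 156 CPM, and Cdk1, the kinase of mitotic entry, at 12.6 against 23.1 CPM. Hmmr, a spindle protein, and Ccnb2, a B-type cyclin, had the lowest ratios of the list, -1.87 and -1.72. The 40 measured DNA replication genes had a median log2 ratio of -0.53, with 5 called lower and 0 higher. Of 24 cyclins, CDK inhibitors, RB and E2F genes, 3 were called lower, which were Ccne1, Cdkn2d and E2f2. Because a summed level mixes the number of dividing cells with the RNA of each, fewer dividing cells and less mitotic RNA per cell cannot be told apart from these sums alone.

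The upstream sequences of Mki67 (chr7:135716380-135716629, minus strand) and Ccnb2 (chr9:70421555-70421804, minus strand) are shown for the motifs known from cell cycle promoters. Capitals mark the cell cycle homology region core TTTGAA and the CCAAT box on either strand, which 18.1% and 37.9% of all promoters hold within 250 bases before and 50 after the start.

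Mki67: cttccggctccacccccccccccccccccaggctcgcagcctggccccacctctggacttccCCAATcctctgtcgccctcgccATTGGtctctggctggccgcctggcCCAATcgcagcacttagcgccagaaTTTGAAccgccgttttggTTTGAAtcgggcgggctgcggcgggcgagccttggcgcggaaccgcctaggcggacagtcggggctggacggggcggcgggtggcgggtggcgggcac

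Ccnb2: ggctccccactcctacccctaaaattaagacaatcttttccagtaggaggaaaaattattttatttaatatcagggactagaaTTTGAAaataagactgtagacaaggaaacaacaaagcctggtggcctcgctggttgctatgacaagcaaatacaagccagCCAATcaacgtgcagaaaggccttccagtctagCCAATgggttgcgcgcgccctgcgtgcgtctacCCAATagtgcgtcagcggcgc

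Mki67 had 2 matches to TTTGAA and 3 to CCAAT in this window, and Ccnb2 had 1 and 3. The letters do not differ between the groups and say nothing of the levels above.

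Cells were next counted by cell cycle class, with each cell thinned to 2000 UMIs and shallower cells left out (310 of A20 cKO naive and 239 of control day 3). A strict G2/M cell had UMIs of at least 3 of 18 core mitotic genes, and a strict S cell UMIs of at least 3 of 12 core replication genes with fewer than 3 core mitotic genes. Strict G2/M cells were 75 of 2612 in A20 cKO naive, 2.87% (2.27% to 3.59%), and 156 of 1878 in control day 3, 8.31% (7.10% to 9.65%). The difference was -5.44 percentage points (-6.89 to -4.07). Strict S cells were 1.07% and 2.50% of cells, a difference of -1.43 points (-2.30 to -0.66). G2/M cells were 72.8% of all strict cycling cells in A20 cKO naive and 76.8% in control day 3, a difference of -4.03 points with an interval of -14.7 to 5.86 that spans 0. Among the other controls, the G2/M share was 0.199% (naive), 0.093% (day 1) and 15.3% (day 2). Thus uninjured A20 cKO microglia had a share of G2/M cells between the uninjured and the day 3 controls. Without thinning, the difference in G2/M share was -8.11 points, and that in the G2/M part of cycling cells was -11.4 points (-20.3 to -2.60).

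Within strict G2/M cells, mitotic genes had similar levels in the 2 libraries, which the choice of these cells by mitotic genes favours. Of 33 mitotic genes measured in those cells, core genes left out, 0 were called and the median log2 ratio was 0.06. Mki67 had a log2 ratio of -0.13 (-0.31 to 0.04) and Stmn1 of 0.06 (-0.09 to 0.21) in G2/M cells. In cells outside both strict classes they had -2.03 and -1.33. Mki67 is one of the core mitotic genes that choose the cells, so its ratios inside and outside the class depend on that choice. Cenpa, a centromeric histone, had a ratio of -0.70 (-1.08 to -0.35) and was an exception. Over all genes measured in G2/M cells, 26 of 2336 were called higher (1.11%) and 19 lower (0.813%). Non-cycling cells thinned to the same UMI totals gave 15 of 2142 genes higher (0.700%) and 12 lower (0.560%).

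In cells outside both strict classes, called non-cycling here as a label only, 84 of 9103 genes were called higher (0.923%) and 58 lower (0.637%). They can still include dividing cells. Cells with 2 core mitotic genes, 26 in A20 cKO naive and 93 in control day 3, fell short of the G2/M class. With core genes left out, 10 mitotic genes were measured in non-cycling cells, with 1 called lower and a median of -0.27. Mki67, a core gene, had -2.03 there, as given above. In G2/M cells, Ccl5 had 542 UMIs in A20 cKO naive and 3 in control day 3, and Cxcl13 had 480 and 1. H2-K1 had a log2 ratio of 2.23 (2.03 to 2.44) in G2/M cells and 1.66 in non-cycling cells, and Tnfaip3 of 2.31 (1.23 to 3.57) and 1.13. Fcrls had 69 against 882 UMIs and a log2 ratio of -2.58 (-2.97 to -2.24) in G2/M cells, against -1.05 in non-cycling cells. Gas6 likewise had -2.55 (-3.78 to -1.64) in G2/M cells and -1.18 in non-cycling cells. Camk2n1, an inhibitor of CaM kinase II, and the interferon-induced genes Slfn5 and Gbp7 had -1.89, -1.47 and -1.69 in G2/M cells. P2ry12, in contrast to its higher summed level, had -0.21 (-0.36 to -0.06). The G2/M and non-cycling cells of A20 cKO naive also differed in MHC class I. At or above 20 UMIs of 6 MHC class I genes, a range described below, were 81.3% and 48.7% of them. In that range, whatever the class, Fcrls had a log2 ratio of -2.22 to control day 3. The part of this difference in the ratios of G2/M cells was not tested.

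**Figure D3:**
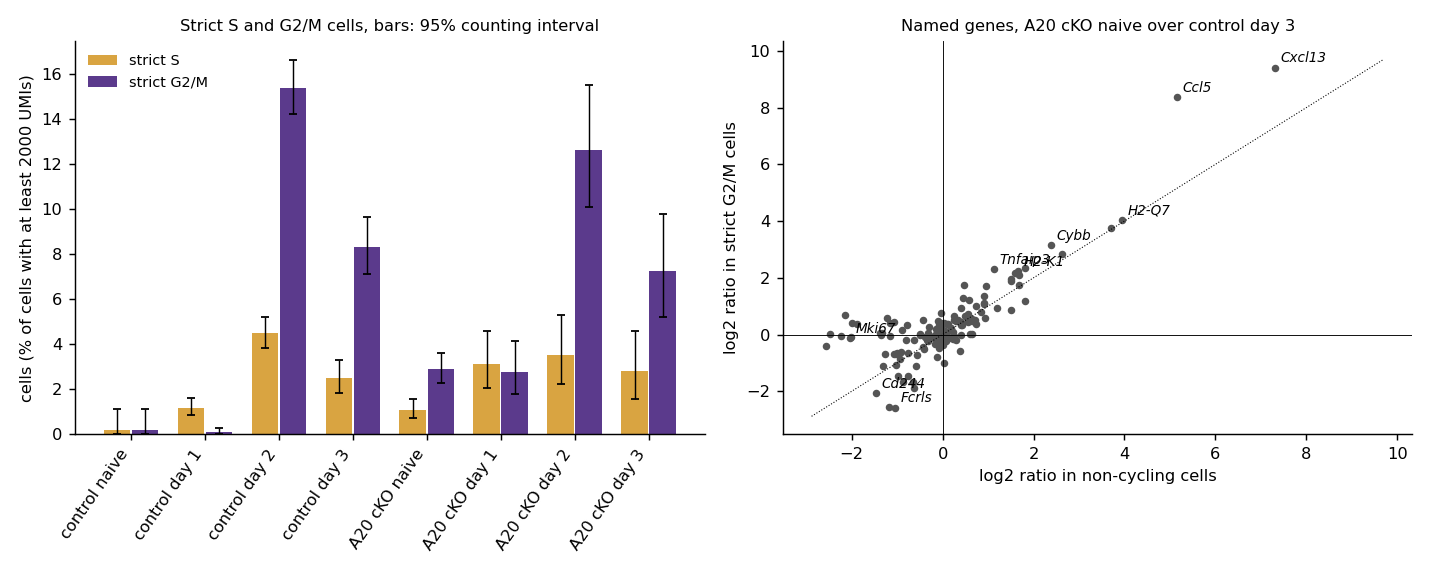
Left, share of cells in the strict S and G2/M classes in each of the 8 libraries (percent of cells with at least 2000 UMIs), with bars for the 95% counting interval; A20 cKO naive lies at 2.87% G2/M and control day 3 at 8.31%. Right, log2 ratio of A20 cKO naive over control day 3 in non-cycling cells against strict G2/M cells. Points are the 137 named genes with at least 20 UMIs in G2/M cells, and the dotted line marks equality. Mitotic genes, some of which chose the G2/M cells, lie near 0 on the vertical axis, and Fcrls lies below the line.

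The A20 cKO naive library was not uniform. The UMIs of 6 MHC class I genes (H2-K1, H2-D1, B2m, H2-Q4, H2-Q6 and H2-Q7) were summed per cell after thinning to 2000 UMIs. In control day 3 the cells formed a single peak, with a median of 11 UMIs and a 95th percentile of 21. In A20 cKO naive the values spread from a 5th percentile of 7 UMIs to a 95th of 53, with a peak near the control level and a long shoulder above it. At 20 UMIs or more there were 1303 of 2612 A20 cKO naive cells, 49.9% (47.9% to 51.8%), and 136 of 1878 control day 3 cells, 7.24% (6.11% to 8.51%). The share was 16.1%, 1.49% and 3.02% in the naive, day 1 and day 2 controls. It was 52.5%, 95.8% and 97.4% in the day 1, day 2 and day 3 A20 cKO libraries. A20 cKO naive and day 1 were therefore mixed, and A20 cKO day 2 and day 3 lay nearly all above 20. The value of 20 was chosen after the distribution was seen. It marks a range of a continuous measure and no cell type, and 251 cells of A20 cKO naive (9.61%) lay within 2 UMIs of it.

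**Figure D4:**
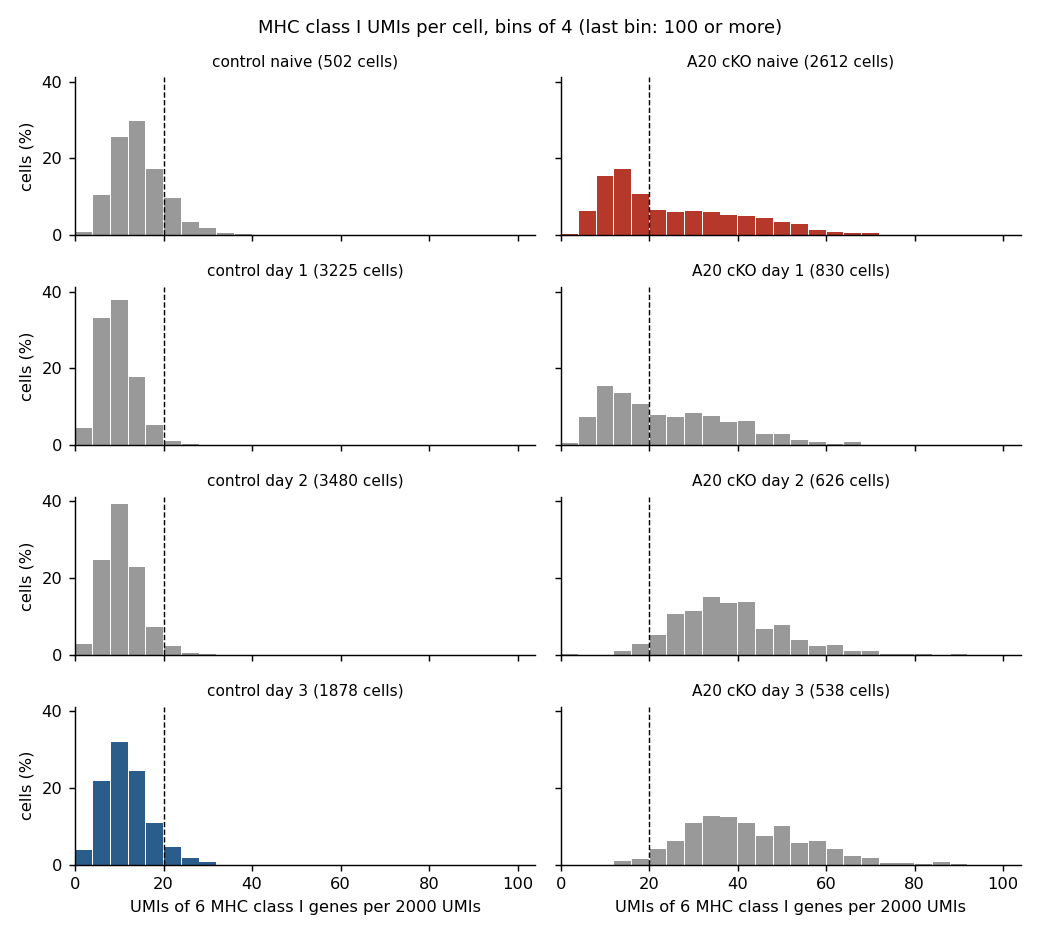
Percent of cells (vertical axis) by summed UMIs of 6 MHC class I genes per 2000 UMIs (horizontal axis, bins of 4) in the 8 libraries, with a dashed line at 20. A20 cKO naive (red) has 49.9% of its cells at or above the line and control day 3 (blue) 7.24%, while A20 cKO day 2 and day 3 lie at 95.8% and 97.4%.

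The ratios to control day 3 differed between the ranges, described here without a test and without the 6 genes that define them. Cells chosen by MHC class I also differ in genes that move with it. Cells below 20 had a median of 2642 UMIs and those at or above 20 a median of 3335 UMIs. These ratios and levels used the full UMIs of cells with at least 2000 UMIs, and shares of cells with a UMI used thinned cells. Against all such control day 3 cells, the cells below 20 had 56 of 8675 genes called higher (0.646%) and 306 lower (3.53%). Those at or above 20 had 111 of 8871 higher (1.25%) and 94 lower (1.06%). Ccl5 was at 216 CPM in the cells below 20, 2467 CPM in those at or above and 36.5 CPM in control day 3. Cxcl13 was at 48.0, 961 and 3.03 CPM, and was detected in 7.79%, 18.9% and 0.373% of cells. Cybb was at 21.5, 233 and 26.6 CPM, Axl at 47.2, 236 and 53.4 CPM and Tlr2 at 106, 374 and 86.6 CPM, so for these 3 genes the lower range was near control day 3. Chemokines as a list had a median log2 ratio of -0.01 below 20, with 2 of 11 higher and 3 lower, and of 1.54 at or above 20, with 8 of 12 higher and 1 lower.

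Interferon-stimulated genes differed between the ranges. In the cells below 20, 48 of 58 measured were called lower than control day 3 and 0 higher, with a median log2 ratio of -1.38. In the cells at or above 20, 12 of 61 were called higher and 0 lower, with a median of 0.31. The nearly equal sums over the whole libraries were thus an average of both ranges. The summed monocyte markers moved the same way, at 10.4 CPM below 20, 68.0 CPM at or above 20 and 35.7 CPM in control day 3. Of these sums, Plac8 alone made up 4.09, 55.8 and 22.8 CPM. The part of the monocyte markers in these levels was not tested. Isg15, a ubiquitin-like interferon product, was at 41.2 CPM, 304 CPM and 244 CPM in the lower range, the upper range and control day 3. Ifi27l2a was at 160, 959 and 796 CPM and Ifitm3 at 154, 1320 and 574 CPM. With control day 3 also limited to its cells below 20, 45 of 57 were called lower, against a background of 3.46% lower and 0.629% higher.

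Of 40 homeostatic genes, 2 were called higher and 0 lower in the cells below 20, with a median log2 ratio of 0.15, and 1 was called higher and 5 lower in the cells at or above 20, with a median of -0.21. P2ry12 was at 4070 CPM below 20, 1654 CPM at or above 20 and 2164 CPM in control day 3. Gpr34 was at 1590, 659 and 781 CPM and Cst3 at 38500, 18500 and 28220 CPM. Fcrls was at 832, 231 and 1075 CPM and was detected in 70.1%, 30.5% and 78.6% of cells, and was thus lowest in the upper range. Early response genes had 5 of 24 called higher and 1 lower in the lower range, with Jun at 2040, 1170 and 945 CPM. Olfml3, Gas6, Spp1 and Gbp7 were below control day 3 in both ranges, with log2 ratios of -0.76 and -1.09, -0.86 and -1.56, -2.85 and -2.70, and -1.02 and -0.92. Tnfaip3 was at 42.8 CPM below 20 and 52.8 CPM at or above 20, against 20.4 CPM in control day 3, so both ranges were above control day 3.

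Dividing cells of A20 cKO naive lay mostly in the upper range. At or above 20 UMIs were 61 of its 75 strict G2/M cells, 81.3% (70.7% to 89.4%), against 48.7% (46.7% to 50.6%) of the cells outside both cycling classes. In control day 3, 4 of 156 strict G2/M cells were at or above 20. Strict G2/M cells were 1.07% (0.586% to 1.79%) of the cells below 20 and 4.68% (3.60% to 5.97%) of those at or above 20, against 8.31% in control day 3. Mitotic genes were below control day 3 in both ranges, with 50 of 52 called lower below 20 and 12 of 58 at or above, medians of -2.04 and -0.74.

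**Figure D5:**
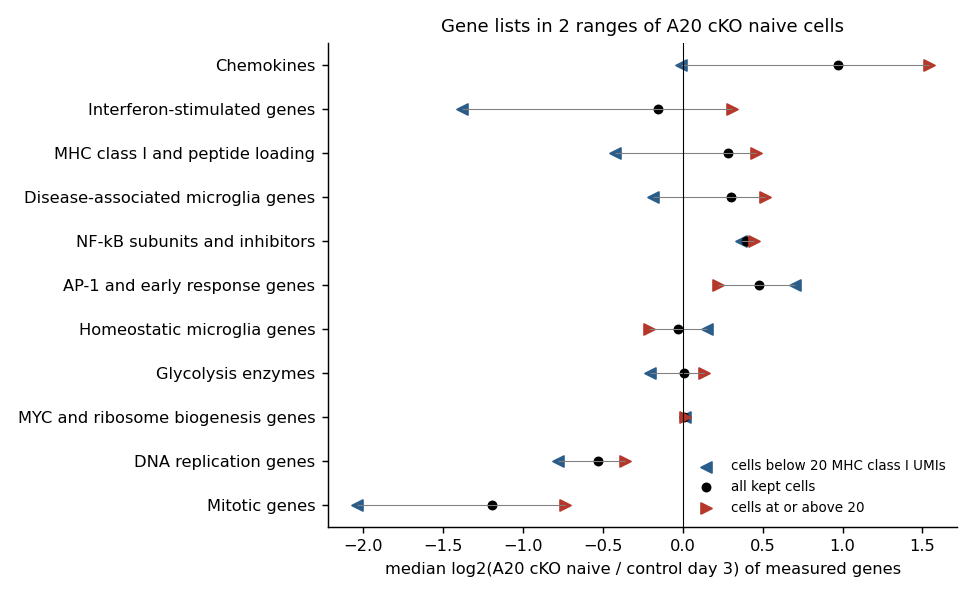
Median log2 ratio of A20 cKO naive over control day 3 (horizontal axis) for 11 gene lists, for cells below 20 MHC class I UMIs (blue triangles), all kept cells (black points) and cells at or above 20 (red triangles). The 6 genes that define the ranges are left out of the triangles. Interferon-stimulated genes span from -1.38 to 0.31, whereas NF-kB genes and ribosome biogenesis genes lie together.

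Metabolic and growth lists did not separate the libraries. Of 16 glycolysis enzymes, 0 were called and the median log2 ratio was 0.01, with Gapdh at 407 against 573 CPM. Of 26 genes of MYC and ribosome biogenesis, 0 were called and the median was 0.01. Myc, a transcription factor of cell growth, was at 54.8 against 46.4 CPM, a log2 ratio of 0.24 (0.04 to 0.45), and was detected in 10.4% and 8.73% of thinned cells, a difference of 1.64 points (-0.12 to 3.36). It was highest in control day 1, at 96.5 CPM. Heat shock proteins had 0 of 13 called. Cholesterol genes had 1 of 20 called lower (background 1.49% of genes), the desaturase Scd2 at 9.08 against 20.3 CPM. Of 14 genes of CSF1 receptor and DAP12 signalling, Csf1 was the only gene called, and the receptor Csf1r was at 1720 against 1758 CPM.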

How the data were processed

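The deposited values are counts, the number of UMIs of each gene under each barcode, not normalized by the authors. Per the submitters' processing notes they were made with Cell Ranger 2.1.1 on mm10. The labels name a v3.1 kit and the methods a v3 kit. UMIs of kept cells were summed per library and scaled to a common total (CPM), and log2 ratios were taken with 0.5 UMIs added to each sum. Genes needed at least 100 UMIs over both sums. With 1 library a side no differential test was run. Intervals were exact Poisson (sums), exact conditional binomial (ratios), Clopper-Pearson (shares) and Newcombe (differences of shares), at 95%. The sort gated out doublets, but no doublet caller was run, so cells captured together in a droplet were not removed. Only the calculation of ratios and their intervals was tried on simulated Poisson counts, which hold no spread between libraries. That trial did not cover thinning, cell classes, ranges or promoters. Gene positions are from GENCODE on GRCm38 and promoters from RefSeq (GRCm38.p6), for 7365 of 9541 measured genes matched by symbol, the first listed where several were. GENCODE and RefSeq starts can differ, as for Tnfaip3 and H2-D1. The NF-kB consensus and the other motifs were searched on both strands.

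Named genes were the 12 highest and 12 lowest with a mean of at least 50 CPM, without mitochondrial, ribosomal, sex-linked marker and unnamed genes, 5 each within G2/M and non-cycling cells, Tnfaip3, Myc, Mki67 and Cdk1, and for each list up to 4 by ratio and 3 by level. Members and lists were chosen with earlier results of these data known. Alternatives covered cell filters, scaling, pseudocount, gene minimum, thinning, shared barcodes and cell subsets. Python 3.11.15, numpy 2.4.6 and scipy 1.17.1 were used.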

Additional observations from a re-analysis of the deposited data

How the results depend on the processing

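No paired analysis was possible because each group had 1 library and shares no replicate with another. Another cell filter, TMM or median-of-ratios scaling, mean of cell CPM, a pseudocount of 5 UMIs and dropping shared barcodes kept the counts of called genes within 1.5 times. Other settings moved them. With no gene minimum (16152 genes) 1446 were higher and 2073 lower, and with 500 UMIs (5145 genes) 31 and 22. Without cells holding another cell type's marker, which left 433 and 349 cells (14.8% and 16.5%), 22 and 23 of 3775 were called. Of the listed markers, Slc1a3 (astrocytes) was found in 64.0% and 55.3% of kept cells and Mbp in 18.5% and 21.3%. This setting thus dropped most cells, and it does not separate microglia from other cell types. Without strict cycling cells 65 were lower. In that order of settings (no minimum, 500 UMIs, no other-type markers), the chemokine median was 0.85, 0.79 and 0.82, and it was 0.71 without the 5% of cells with most UMIs. Without other-type markers the medians were -0.49 for interferon-stimulated, 0.0334 for homeostatic, -0.053 for replication (2 genes) and -1.80 for mitotic genes (4 genes), and Nfkbie reversed to -0.15. The cause of these changes was not tested. Replication was -0.18 at 500 UMIs, and mitotic genes -0.32 without strict cycling cells (17 genes).

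The ranges by MHC class I, added after the data were seen, gave 56 higher and 306 lower below 20 and 94 lower at or above. List medians below and above were -0.012 and 1.54 (chemokines), -1.38 and 0.31 (interferon), -0.42 and 0.46 (MHC class I), 0.15 and -0.21 (homeostatic), 0.70 and 0.22 (early response) and -2.04 and -0.74 (mitotic). The difference in G2/M share was -3.55 points at 1000 UMIs and -8.11 unthinned, and in S share -2.48 unthinned. Within G2/M cells 17 genes were higher at 1000 UMIs, and 43 higher and 32 lower unthinned.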
